A study of Mus musculus with 9 samples.

Results

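The Pramel genes are the mouse relatives of PRAME, a human gene first described as an antigen preferentially expressed in melanoma. They were taken as every named gene in the deposited expression table whose symbol begins with Pramel followed by a number, which gave 48 genes with 117 transcripts, out of 52306 named genes. One of the 48, Pramel13os, is annotated as an antisense RNA and has no protein. RNA-seq was made from 4T1 cells, a mouse mammary carcinoma line, sampled at day 2 in 3 groups of 3 libraries. The groups were cells treated with MK1775, also called adavosertib, which inhibits the kinase Wee1, cells labelled as carrying a Wee1 siRNA knockdown, and a negative control called NC. All were grown in the same serum-supplemented medium. No label states the dose of MK1775, the siRNA sequences or what NC cells received in place of either. The titles number the siRNA libraries without saying if the numbers mark repeats of the same siRNA or different siRNAs, so the SD of that group may hold both. Values are FPKM, fragments per kilobase of transcript scaled to library size, summed over the transcripts of a gene, so levels of different genes are compared per length.

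PRAME-family proteins are built of leucine-rich repeats. Human PRAME is known as a cancer-testis antigen, as a substrate-binding subunit of ubiquitin ligases built on CUL2, and as a repressor of retinoic acid receptor signalling. In mice and other rodents the family has multiplied into tandem arrays, and most members are known from the germ line and the early embryo rather than from adult epithelium. Pramel6 and Pramel7 are known from the inner cell mass and embryonic stem cells, where Pramel7 brings about the degradation of Uhrf1, a protein that keeps DNA methylation in place after replication. Pramel1 and Pramel3 are known from the testis. For most other members no separate function is stated here.

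Promoter sequences are printed for 3 pairs of genes of the large chromosome 4 group whose upstream sequences are close copies of each other. Each is the 250 bases before the annotated start, 5′ to 3′ on the gene's own strand, from RefSeq on GRCm38.p6. Capitals mark TATAA and ATTCAATCA on either strand. Pramel20 and Pramel31 are shown because both were listed at 0 in NC and were among the highest members in treated cells. Their windows are chr4:143567217-143567466 and chr4:144357714-144357963, both on the plus strand.
Pramel20: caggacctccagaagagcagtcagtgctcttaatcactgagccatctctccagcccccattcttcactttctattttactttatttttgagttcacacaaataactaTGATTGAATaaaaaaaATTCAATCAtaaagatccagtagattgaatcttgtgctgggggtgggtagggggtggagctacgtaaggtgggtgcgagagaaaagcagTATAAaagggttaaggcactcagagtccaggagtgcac
Pramel31: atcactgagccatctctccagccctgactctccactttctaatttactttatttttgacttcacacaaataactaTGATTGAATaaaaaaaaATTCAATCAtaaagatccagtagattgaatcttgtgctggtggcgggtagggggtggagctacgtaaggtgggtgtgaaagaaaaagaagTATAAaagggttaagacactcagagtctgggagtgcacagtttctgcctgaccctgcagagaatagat

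Pramel24 and Pramel11 are shown because their named transcripts, summed per gene, lay far apart in level although the windows printed here are alike. The windows are chr4:143719201-143719450 on the plus strand and chr4:143900381-143900630 on the minus strand.
Pramel24: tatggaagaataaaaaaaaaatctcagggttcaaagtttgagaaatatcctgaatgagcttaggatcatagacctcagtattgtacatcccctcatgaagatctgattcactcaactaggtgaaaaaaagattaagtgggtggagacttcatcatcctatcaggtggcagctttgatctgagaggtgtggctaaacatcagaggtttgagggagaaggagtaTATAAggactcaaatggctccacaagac
Pramel11: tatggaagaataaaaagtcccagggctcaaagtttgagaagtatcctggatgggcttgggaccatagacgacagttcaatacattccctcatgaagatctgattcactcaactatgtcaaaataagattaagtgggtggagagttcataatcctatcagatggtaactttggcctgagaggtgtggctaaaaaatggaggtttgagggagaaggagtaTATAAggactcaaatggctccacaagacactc

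Pramel5 and Pramel4 are shown because the promoters are alike but Pramel4 was listed at 0 in all 9 libraries. The windows are chr4:144280467-144280716 on the minus strand and chr4:144058875-144059124 on the plus strand.
Pramel5: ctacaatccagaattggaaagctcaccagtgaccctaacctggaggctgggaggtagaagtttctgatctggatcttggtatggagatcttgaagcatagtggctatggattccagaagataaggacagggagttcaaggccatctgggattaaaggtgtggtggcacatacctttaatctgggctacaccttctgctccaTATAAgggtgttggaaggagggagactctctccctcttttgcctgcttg
Pramel4: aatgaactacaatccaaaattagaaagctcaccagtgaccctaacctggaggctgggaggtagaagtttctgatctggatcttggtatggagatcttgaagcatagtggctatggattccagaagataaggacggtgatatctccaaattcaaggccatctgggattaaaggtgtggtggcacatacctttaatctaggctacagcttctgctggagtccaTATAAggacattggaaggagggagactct

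The libraries held 10017 to 10783 named genes at 1 FPKM or more, and the epithelial keratins Krt8 and Krt18 were abundant in every group. Wee1 had 15, 14.7 and 16.8 FPKM in MK1775 libraries and 13.1, 15.1 and 15.3 FPKM in the libraries labelled Wee1 siRNA, against 11.5, 10.5 and 11 FPKM in NC. Wee1 mRNA was thus not lower in any library with the siRNA label than in NC, so that group is named by its label alone. More transcripts had a value above 0 in treated cells, 74437 to 76364 with MK1775 and 73135 to 75579 in the libraries labelled Wee1 siRNA against 65343 to 66662 in NC, and the part of this in the Pramel values was not tested. Nor was that of cell type markers. All 5 epithelial markers were measured, and their summed level was 761 to 779 FPKM with MK1775, 703 to 712 FPKM in the libraries labelled Wee1 siRNA and 409 to 475 FPKM in NC, with Epcam under 1 FPKM in all groups. The 3 blood markers summed to 0.713 to 0.848 FPKM with MK1775, 1.04 to 1.08 FPKM in the libraries labelled Wee1 siRNA and 0.0448 to 0.0951 FPKM in NC. This came from Itga2b, which averaged 0.762 FPKM with MK1775, 1.06 FPKM in the libraries labelled Wee1 siRNA and 0.042 FPKM in NC. Of the globin genes, Hbb-bs was at 0 in all treated libraries and Hba-a1 had a value in MK1775 replicate 3 alone. The 4 immune markers reported here summed to 5.27 to 7.34 FPKM with MK1775, 6.24 to 8.17 FPKM in the libraries labelled Wee1 siRNA and 8.72 to 10.1 FPKM in NC, with Cd3e at 0 in all 9 libraries. Cd68 and Cd14 were lower in treated cells. Ptprc went the other way, with means of 0.17 FPKM with MK1775, 0.326 FPKM in the libraries labelled Wee1 siRNA and 0.0126 FPKM in NC. For the 4 stromal markers the sums were 2.00 to 2.69 FPKM with MK1775, 2.53 to 2.96 FPKM in the libraries labelled Wee1 siRNA and 2.20 to 3.47 FPKM in NC. These markers did not move together. Pdgfrb averaged 0.79 FPKM with MK1775, 0.768 FPKM in the libraries labelled Wee1 siRNA and 1.44 FPKM in NC. Pecam1 averaged 0.0988 FPKM with MK1775, 0.166 FPKM in the libraries labelled Wee1 siRNA and 0 in NC. Col1a1 was also higher in treated cells, and Pdgfra overlapped between treated cells and NC.

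Many, but not all, of the Pramel genes were listed at 0 in NC and had values in some or all treated libraries. Of the 48 genes, 18 were listed at 0 in all 3 NC libraries and above 0 in all 6 treated libraries, a pattern found in 1.97% of all named genes. A further 12 were listed at 0 in NC and above 0 in some of the treated libraries, and 16 were at 0 in all 9 libraries, as were 45.1% of all named genes. Pramel12 and Pramel51 alone had a value in NC, and that of Pramel51 was 0.0113 FPKM in a single library. No Pramel gene had the opposite pattern, which 0.0268% of all named genes had. Only Pramel12, above 0 in all 3 NC libraries, could have shown it, so nothing is read from its absence. The family was picked with its difference from NC already known, so its levels against NC are a description without a test. In bulk RNA, more cells expressing a gene and more RNA per expressing cell cannot be told apart.

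Among genes listed at 0 in NC, 39.1% of the 46 such Pramel genes and 3.19% of the 32260 such genes of the whole table were above 0 in every treated library. The whole table held 1028 genes of this pattern. Ranked by their mean over the 6 treated libraries, Pramel20 stood in place 3, Pramel24 in place 11, Pramel31 in place 18 and Pramel45 in place 22. The lowest Pramel gene of the pattern, Pramel11, stood in place 778 with 0.0787 FPKM.

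**Figure D1:**
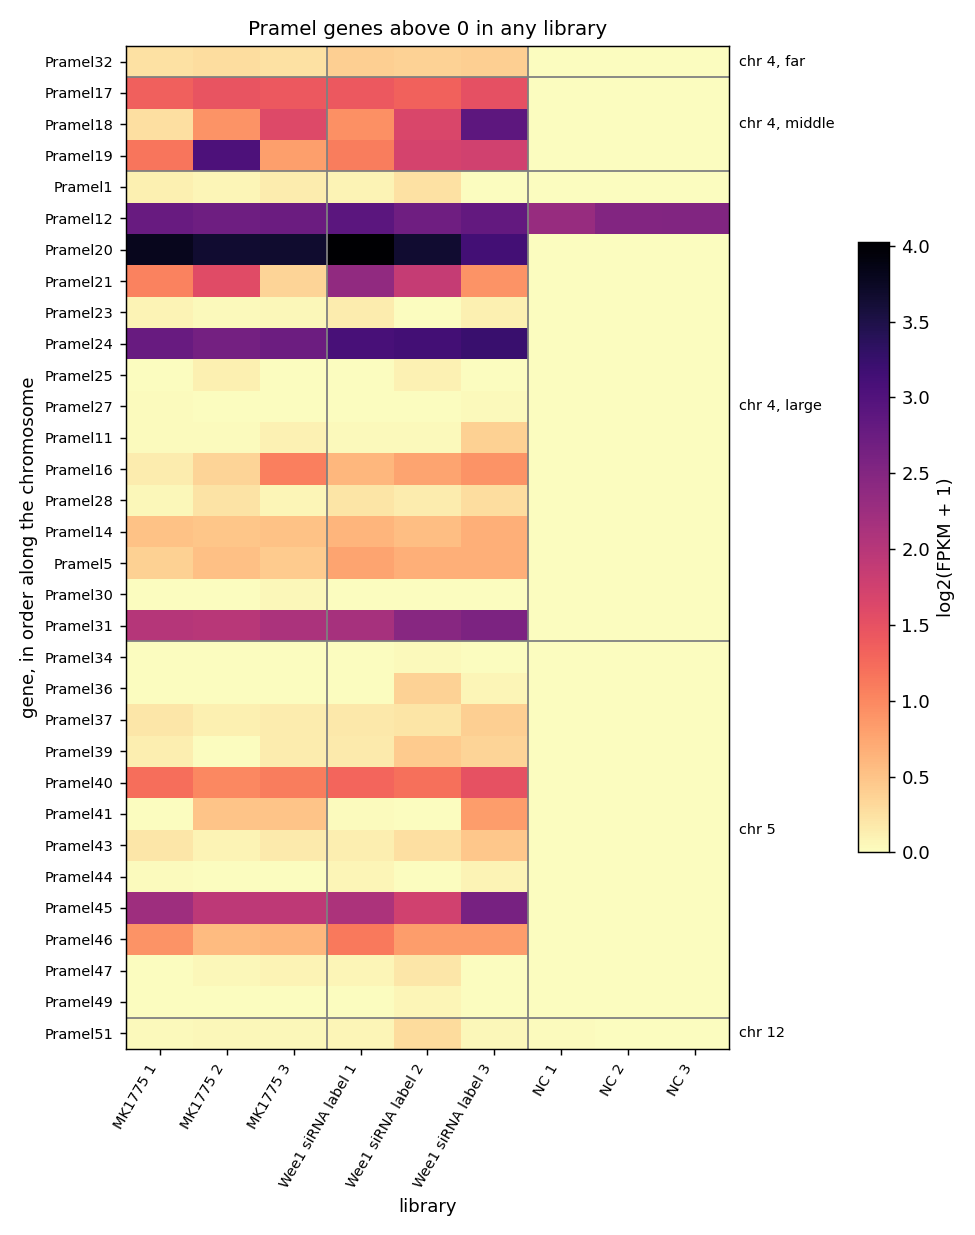
Levels of the 32 Pramel genes above 0 in any library, one row per gene in order along its chromosome and one column per library, coloured by log2(FPKM + 1). The NC columns hold a visible value for Pramel12 alone, while Pramel20, Pramel24, Pramel12, Pramel31 and Pramel45 are dark in all 6 treated columns.

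Summed over all 48 genes, the family had 39.2, 43.9 and 38.7 FPKM in MK1775 libraries, 49.4, 46.2 and 51.1 FPKM in the libraries labelled Wee1 siRNA, and 3.94, 4.68 and 4.74 FPKM in NC. The 3 groups did not overlap, with NC lowest and the libraries labelled Wee1 siRNA highest. Group means were 40.6 ± 2.85 FPKM with MK1775, 48.9 ± 2.53 FPKM in the libraries labelled Wee1 siRNA and 4.45 ± 0.445 FPKM in NC (SD, n = 3 each), 9.11 times NC with MK1775 and 11 times NC in the libraries labelled Wee1 siRNA. Pramel12 alone made up 99.9% of the NC sum. Without Pramel12, the sums averaged 34.9 ± 2.98 FPKM with MK1775, 42.9 ± 2.18 FPKM in the libraries labelled Wee1 siRNA and 0.00378 ± 0.00654 FPKM in NC (SD, n = 3 each).

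**Figure D2:**
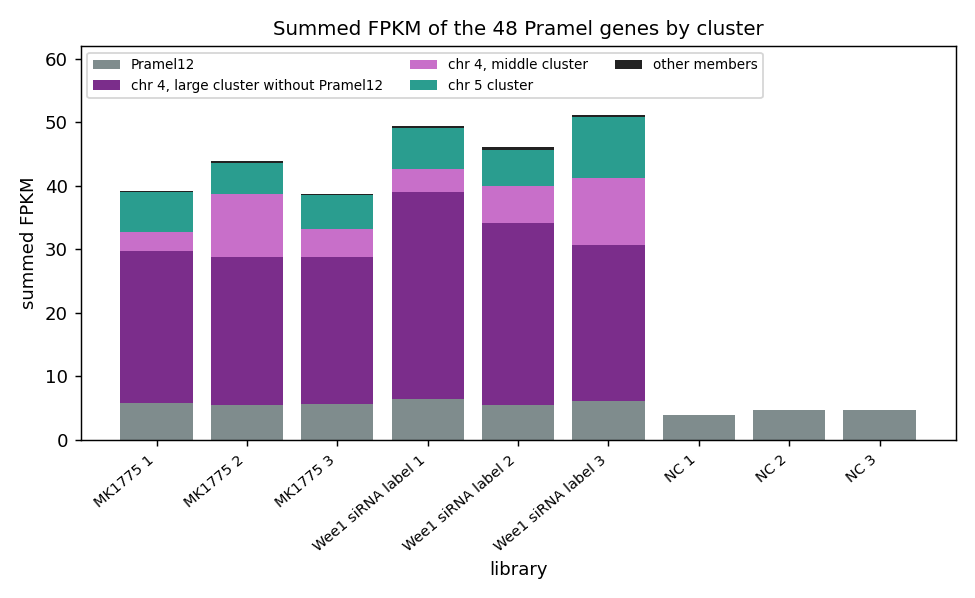
Summed FPKM of the Pramel genes in each of the 9 libraries, with bars divided by chromosome cluster and Pramel12 shown apart. Treated bars reach 38.7 to 51.1 FPKM, mostly from the large chromosome 4 cluster, and NC bars reach 3.94 to 4.74 FPKM and consist of Pramel12.

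The 48 genes lie in 7 places on GRCm39 when genes less than 5 Mb apart are joined. The largest group, on chromosome 4 from 143120998 to 144135034, holds 22 genes, of which 9 had the pattern of 0 in NC and a value in all treated libraries and 7 were at 0 throughout. It carried 29.1 ± 0.547 FPKM with MK1775 and 34.5 ± 4.19 FPKM in the libraries labelled Wee1 siRNA, against 4.45 ± 0.452 FPKM in NC (SD, n = 3 each). The chromosome 5 group, from 93629688 to 95884032, holds 18 genes, of which 5 had the pattern and 6 were at 0 throughout, and it carried 5.49 ± 0.702 FPKM with MK1775 and 7.2 ± 2.09 FPKM in the libraries labelled Wee1 siRNA (SD, n = 3 each) and was listed at 0 in NC. A smaller group of 3 genes on chromosome 4, from 101692166 to 101802683, carried 5.76 ± 3.62 FPKM with MK1775 and 6.75 ± 3.52 FPKM in the libraries labelled Wee1 siRNA (SD, n = 3 each) and was also listed at 0 in NC. All 3 of its genes had the pattern. The single gene Pramel32, on chromosome 4 from 88545557 to 88552648, had 0.195 ± 0.0172 FPKM with MK1775 and 0.309 ± 0.0179 FPKM in the libraries labelled Wee1 siRNA (SD, n = 3 each), and was listed at 0 in NC.

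Pramel20 was the highest member in treated cells. It is 1 annotated transcript on chromosome 4 from 143294045 to 143300912, plus strand. It had 12.9, 11.6 and 11.6 FPKM in MK1775 libraries and 15.2, 11.6 and 7.74 FPKM in the libraries labelled Wee1 siRNA, and was listed at 0 in all 3 NC libraries. The MK1775 libraries lay close together and inside the range of the libraries labelled Wee1 siRNA, whose replicate 3 was lowest. It made up 29.7% of the family's summed FPKM with MK1775 and 23.6% in the libraries labelled Wee1 siRNA.

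Pramel24, from 143446025 to 143455728 on the plus strand, had 5.81, 5.3 and 5.58 FPKM in MK1775 libraries and 7.49, 7.8 and 8.34 FPKM in the libraries labelled Wee1 siRNA, and was listed at 0 in NC. The 2 treated groups did not overlap, and each was tight. Pramel31, from 144084512 to 144092155 on the plus strand, had 3.05, 2.98 and 3.34 FPKM in MK1775 libraries and 3.48, 4.49 and 4.92 FPKM in the libraries labelled Wee1 siRNA, and was listed at 0 in NC. Here too every MK1775 library lay below every library labelled Wee1 siRNA, though replicate 1 of the siRNA label was close to the highest MK1775 library. Pramel21, from 143341573 to 143345166 on the plus strand, had 1.07, 1.99 and 0.282 FPKM in MK1775 libraries and 4.15, 2.63 and 0.879 FPKM in the libraries labelled Wee1 siRNA, and was listed at 0 in NC. Its replicates differed so widely that the treated groups overlapped.

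Pramel12 was the exception to the pattern. This gene, from 143138996 to 143147661 on the plus strand at one edge of the large chromosome 4 group, had 5.83, 5.52 and 5.68 FPKM in MK1775 libraries, 6.48, 5.44 and 6.06 FPKM in the libraries labelled Wee1 siRNA, and 3.93, 4.68 and 4.74 FPKM in NC. All treated libraries lay above all NC libraries, but by a small margin next to genes that were at 0 in NC. Its means were 5.67 ± 0.154 FPKM with MK1775, 5.99 ± 0.523 FPKM in the libraries labelled Wee1 siRNA and 4.45 ± 0.452 FPKM in NC (SD, n = 3 each). Pramel1, next to it from 143120998 to 143126730 and known from the testis, had 0.0837, 0.0462 and 0.107 FPKM in MK1775 libraries and 0.0592, 0.181 and 0 FPKM in the libraries labelled Wee1 siRNA, and was listed at 0 in NC.

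In the smaller chromosome 4 group, Pramel17 was steady and its neighbours were not. Pramel17, from 101692166 to 101701220 on the minus strand, had 1.66 ± 0.118 FPKM with MK1775 and 1.68 ± 0.175 FPKM in the libraries labelled Wee1 siRNA (SD, n = 3 each), with 0 in NC. Pramel18, from 101766318 to 101770668 on the plus strand, had 0.197, 0.874 and 2.04 FPKM in MK1775 libraries and 0.914, 2.15 and 6.36 FPKM in the libraries labelled Wee1 siRNA, with 0 in NC. Pramel19, from 101797604 to 101802683 on the plus strand, had 1.23, 7.21 and 0.756 FPKM in MK1775 libraries and 1.14, 2.25 and 2.38 FPKM in the libraries labelled Wee1 siRNA, with 0 in NC. The highest value of Pramel19 came from MK1775 replicate 2 and that of Pramel18 from replicate 3 of the siRNA label, and for both genes the treated groups overlapped.

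On chromosome 5, Pramel45 and Pramel40 were the members with a group mean above 1 FPKM. Pramel45, from 95254563 to 95259017 on the plus strand, had 3.7, 2.82 and 2.82 FPKM in MK1775 libraries and 3.27, 2.36 and 5.12 FPKM in the libraries labelled Wee1 siRNA, with 0 in NC. The treated groups overlapped, the libraries labelled Wee1 siRNA holding both the lowest and the highest value. Pramel40, from 94462294 to 94465195 on the plus strand, had 1.15 ± 0.161 FPKM with MK1775 and 1.53 ± 0.28 FPKM in the libraries labelled Wee1 siRNA (SD, n = 3 each), with 0 in NC.

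Members with well-known roles in the early embryo and the testis were at or near 0. Pramel6 and Pramel7, neighbours on chromosome 2 from 87319431 to 87341216, were listed at 0 in all 9 libraries, and so was Pramel3 on chromosome X from 134203056 to 134213401. Uhrf1, the protein target known for Pramel7, had an mRNA level of 40.7 ± 0.524 FPKM with MK1775 and 40.4 ± 1.54 FPKM in the libraries labelled Wee1 siRNA, against 74.3 ± 3.21 FPKM in NC (SD, n = 3 each).

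The chromosome 4 and 5 groups hold other genes between the Pramel genes, many of them predicted genes with symbols beginning with Gm. In the large chromosome 4 group, 25 other named genes lie between the outermost members. Of these, 6 were at 0 in NC and above 0 in every treated library, 4 were above 0 in some treated libraries and 14 were at 0 in all 9 libraries. Gm13123 was the exception, with 5.12, 5.36 and 7.09 FPKM in MK1775 libraries, 5.88, 6.01 and 3.83 FPKM in the libraries labelled Wee1 siRNA, and 6.28, 4.65 and 4.59 FPKM in NC, all overlapping. The oocyte gene Oog4, a PRAME-family relative in this group, had 0.119 ± 0.0539 FPKM with MK1775 and 0.0963 ± 0.0634 FPKM in the libraries labelled Wee1 siRNA (SD, n = 3 each), with 0 in NC. Among 26 other named genes of the chromosome 5 group, 9 were at 0 in NC and above 0 in every treated library, 6 were above 0 in some of these and 11 were at 0 in all 9 libraries. None of those 26 had a value in NC.

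A direct test between the treatments, which the choice of the family did not use, called no Pramel gene. MK1775 and the libraries labelled Wee1 siRNA were compared by limma on log2(FPKM + 1), over the 10453 genes that averaged 1 FPKM or more across the 9 libraries, with p-values adjusted by the Benjamini-Hochberg method over all of them and a threshold of 0.05. Of the 9 Pramel genes that passed this minimum, 0 were called, and 1 of all genes tested was (0.00957%). At an unadjusted p under 0.05 there were 2 Pramel genes, and 5.89% of all genes tested. The lowest member to pass the minimum was Pramel17 with a mean of 1.11 FPKM over the 9 libraries, and the highest to miss it was Pramel40 with 0.891 FPKM. Against NC, the same fit put 7 of the 9 higher with MK1775 (17.9% of all genes tested) and 9 of the 9 higher in the libraries labelled Wee1 siRNA (19.6%), and no treated library overlapped NC for any of the 9, all treated values being higher, as was so of 23.8% of all genes tested with MK1775 and 24.1% in the libraries labelled Wee1 siRNA. The family was chosen for these contrasts, and nothing is read from the counts.

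Pramel24 showed the smallest p of the members. Its log2 difference, MK1775 minus the libraries labelled Wee1 siRNA, was -0.44 (SE 0.0687, 95% interval -0.59 to -0.28, limma adjusted p = 0.323), and it was lower in 3 of 3 MK1775 libraries. For Pramel31 the difference was -0.35 (SE 0.109, 95% interval -0.60 to -0.10, limma adjusted p = 0.711), also lower in 3 of 3. Of the 9 members tested, these were the 2 whose treated groups did not overlap, MK1775 being lower, as was so of 6.78% of all genes tested. Of the 9 members, 7 had a difference below 0, against 54.6% of all genes tested, and the median difference was -0.12 against -0.013 over all genes tested. Without the minimum, 26 of the 32 members above 0 in any library had a difference below 0, against 54.7% of all genes. The minimum could favour members high in the libraries labelled Wee1 siRNA, such as Pramel18, with a mean of 3.14 FPKM there and 1.04 FPKM with MK1775. Members also share sequence and libraries, so they are not separate observations and these counts are a description only. Of the 9 tested, the 7 other than Pramel24 and Pramel31 had limma adjusted p-values of 0.863 to 0.987.

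For the less steady members the intervals were wide. Pramel18 differed by -0.90 (95% interval -2.03 to 0.23) and Pramel21 by -0.71 (95% interval -1.63 to 0.20), so neither a difference of 0 nor a several-fold one is outside the interval. Leaving out a library moved Pramel18 between -1.35 (without replicate 1 of the siRNA label) and -0.37 (without replicate 3 of that label), with -0.57 without MK1775 replicate 1. Pramel21 moved between -1.12 (without replicate 3 of the siRNA label) and -0.39 (without its replicate 1), with -0.40 without MK1775 replicate 3. Pramel19 differed by 0.15 (95% interval -1.04 to 1.34), and by -0.53 without MK1775 replicate 2, the library with 7.21 FPKM. Pramel20 differed by 0.10 (95% interval -0.35 to 0.55), and by -0.13 without replicate 3 of the siRNA label. Pramel12, at -0.065 (95% interval -0.26 to 0.13), and Pramel17, at -0.012 (95% interval -0.20 to 0.18), had the intervals closest to 0.

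**Figure D3:**
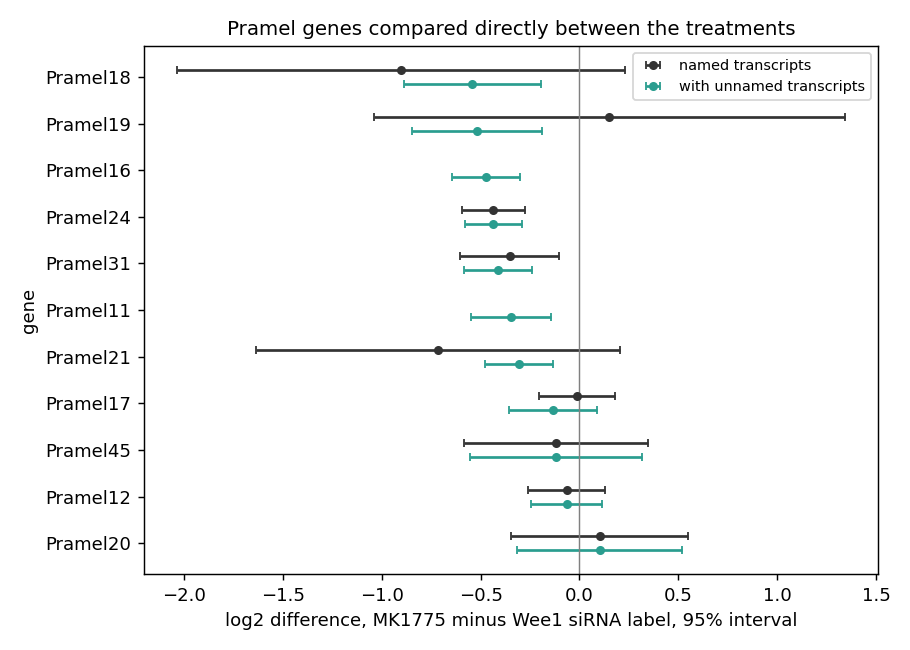
Log2 difference between MK1775 and the libraries labelled Wee1 siRNA for each Pramel gene tested, points with 95% intervals from the limma fit, for named transcripts (dark) and with unnamed transcripts of the same locus added (green). Pramel31 lies left of 0 either way, and the wide intervals of Pramel18, Pramel19 and Pramel21 narrow once unnamed transcripts are added. Pramel24 also lies left of 0. The loci of Pramel24, Pramel12 and Pramel45 hold no unnamed transcripts, so both points of each rest on the same values. Pramel20, whose locus holds another named gene, had none added.

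Part of the signal at these loci stood in assembled transcripts without a gene name. The deposited table holds 17991 such transcripts, and 30 of them belong to the loci of 12 Pramel genes. All 30 were listed at 0 in NC. With them included, the family sum was 90.2, 85.9 and 79.3 FPKM in MK1775 libraries, 106, 115 and 136 FPKM in the libraries labelled Wee1 siRNA, and 3.94, 4.68 and 4.74 FPKM in NC. The treated groups again did not overlap, with means of 85.1 ± 5.5 FPKM with MK1775 and 119 ± 15.1 FPKM in the libraries labelled Wee1 siRNA (SD, n = 3 each). With the 23 transcripts at the 11 loci that hold no other named gene, the means were 82 ± 4.94 FPKM with MK1775 and 109 ± 10.2 FPKM in the libraries labelled Wee1 siRNA (SD, n = 3 each).

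At Pramel16 nearly all of the signal was unnamed. Its named transcript averaged 0.502 ± 0.535 FPKM with MK1775 and 0.694 ± 0.173 FPKM in the libraries labelled Wee1 siRNA, while its whole locus, on chromosome 4 from 143675150 to 143678252 by the named transcript, had 14.4, 14.5 and 12.3 FPKM in MK1775 libraries and 18.2, 19.6 and 20.5 FPKM in the libraries labelled Wee1 siRNA, with 0 in NC. The treated groups did not overlap. How often whole loci of other genes split this way was not counted, here or for the loci below. At the Pramel11 locus the named transcripts averaged 0.0363 ± 0.0369 FPKM with MK1775 and 0.121 ± 0.162 FPKM in the libraries labelled Wee1 siRNA, and the whole locus 2.1 ± 0.257 FPKM with MK1775 and 2.93 ± 0.313 FPKM in the libraries labelled Wee1 siRNA (SD, n = 3 each), with 0 in NC.

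Pramel18 and Pramel19, whose replicates had differed widely, varied less by locus relative to their mean, but not always in FPKM. In the libraries labelled Wee1 siRNA the SD of Pramel19 was 4.57 FPKM by locus and 0.684 FPKM by named transcript. That of Pramel18 was 4.62 FPKM by locus and 2.85 FPKM by named transcript. The Pramel19 locus had 12.1, 12.6 and 11.1 FPKM in MK1775 libraries and 14.1, 16.6 and 22.9 FPKM in the libraries labelled Wee1 siRNA. The Pramel18 locus had 13.1, 12.6 and 10.4 FPKM in MK1775 libraries and 14.5, 16.8 and 23.4 FPKM in the libraries labelled Wee1 siRNA. In both, MK1775 libraries lay below all libraries labelled Wee1 siRNA, and MK1775 replicate 2 no longer stood apart at Pramel19. Both loci had similar totals in each library, and Pramel18 shares with Pramel19 36.9% of the 100-base stretches that were compared for it. They are thus not shown to be separate observations, and sharing of fragments between them was not tested. The Pramel20 locus, which also holds the predicted gene Gm13057 listed at 0 in all 9 libraries, had 16.6, 14.7 and 14.2 FPKM in MK1775 libraries and 19.5, 21.4 and 22.4 FPKM in the libraries labelled Wee1 siRNA. Replicate 3 of the siRNA label, lowest by the named Pramel20 transcript, was highest by locus.

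With unnamed transcripts added to a gene where its locus held no other named gene, 11 Pramel genes were tested among 10938 genes, and limma called 0 of them between the treatments, against 0.00914% of all genes tested. At an unadjusted p under 0.05 there were 7 of the 11 and 6.64% of all genes tested, and 10 of the 11 had a difference below 0 against 55.8% of all. Here too the members are not separate observations, and the counts are a description only. The loci of Pramel24 (-0.44, 95% interval -0.58 to -0.29) and Pramel16 (-0.47, 95% interval -0.64 to -0.30) had the smallest limma adjusted p, 0.142 for both, each lower in 3 of 3 MK1775 libraries. The Pramel24 locus holds no unnamed transcripts, so its values were those of the first fit and only the other genes changed. Pramel31 followed at -0.41 (95% interval -0.58 to -0.24, limma adjusted p = 0.208), Pramel21 at -0.31 (95% interval -0.48 to -0.14, limma adjusted p = 0.385) and Pramel11 at -0.35 (95% interval -0.55 to -0.14, limma adjusted p = 0.426). Pramel19, at -0.52 (95% interval -0.84 to -0.19, limma adjusted p = 0.462), had the opposite sign to its named transcript.

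**Figure D4:**
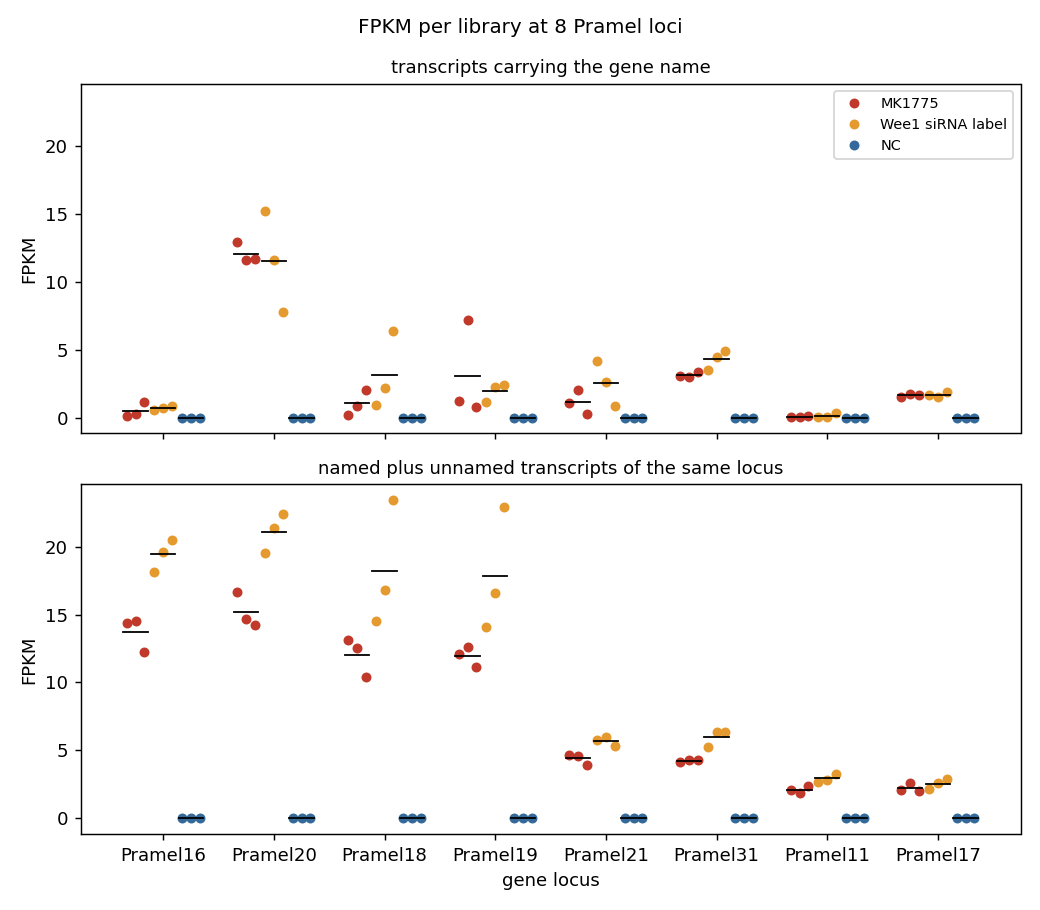
FPKM per library at 8 Pramel loci, points for single libraries and bars for group means, with named transcripts above and the whole locus below. By locus, MK1775 points lie below the points of the libraries labelled Wee1 siRNA at Pramel16, Pramel20, Pramel18, Pramel19, Pramel21, Pramel31 and Pramel11, and all NC points lie at 0. At Pramel17 the treated points overlap. The share of all loci that split this way was not counted.

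Transcript identity also moved within genes. Pramel5 had 0.308, 0.447 and 0.353 FPKM in MK1775 libraries and 0.696, 0.595 and 0.583 FPKM in the libraries labelled Wee1 siRNA, with 0 in NC. Its treated groups did not overlap, MK1775 being lower, as was so of 6.78% of all genes tested. Pramel5 itself missed the minimum for testing. Its transcript ENSMUST00000035757 carried a value in MK1775 replicate 1 and in replicates 1 and 3 of the siRNA label, and ENSMUST00000105752 in the other 3 treated libraries, never both in the same library. Pramel45 was mostly ENSMUST00000238343, with 2.91 FPKM on average with MK1775 and 2.89 FPKM in the libraries labelled Wee1 siRNA, except in replicate 2 of the siRNA label, where ENSMUST00000238517 was higher at 1.43 FPKM against 0.934 FPKM.

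Because members are copies of each other, the sequence that members share was measured on GENCODE M21 transcripts of GRCm38, to which 115 of the 117 transcripts matched by identifier, 92 of them at the same length. For each gene this gives the share of its 100-base stretches also found in transcripts of another gene. The median over members was 36%, 20 members shared over 50% and 9 shared none. On chromosome 5 the median was 82.9%, in the large chromosome 4 group 15.9%. Pramel24 shared 1.74% and Pramel12 0%, so nearly all stretches of this length were their own. Pramel31 shared 14%, Pramel45 25.8% and Pramel20 40%, of which 36.5% with the predicted gene Gm13040. Pramel18 shared 36.9% with Pramel19. Pramel18 had 1356 distinct stretches for a deposited length of 3018 bases, and Pramel19 had 1353 for 3755 bases. Pramel31 had 1995 for 3260 bases and Pramel20 had 1996 for 2639 bases. For Pramel18, Pramel19, Pramel31 and Pramel20 the shares thus may not cover the whole deposited transcript. Pramel37 shared 100% with Pramel50, and the first had 0.16 FPKM on average over treated libraries while the second was listed at 0 in all 9, so how fragments were divided between such copies cannot be told from these values. No source used here gives how multiply mapped fragments were counted, and the levels of members with much shared sequence are uncertain.

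The printed promoters can be set beside these levels. RefSeq windows were found for 37 of the 48 genes, and among 666 pairs of them 31 were at least 75% identical over the 250 bases. Pramel20 and Pramel31 were 81.6% identical, Pramel24 and Pramel11 86.8%, and Pramel5 and Pramel4 88%. By named transcripts, genes with these close promoter copies did not have the same level, but the windows were not matched to single transcripts. Pramel24 averaged 6.72 FPKM over the 6 treated libraries and Pramel11 0.0787 FPKM. All of the named Pramel11 value was ENSMUST00000105767, which begins on the minus strand at 143624551 on GRCm39. ENSMUST00000081645, which begins further upstream at 143626984, was listed at 0 in all 9 libraries. The level of Pramel11 may thus not belong to the printed window. By whole locus Pramel24 and Pramel11 were closer, since Pramel11 had 2.1 FPKM with MK1775 and 2.93 FPKM in the libraries labelled Wee1 siRNA, where Pramel24 had 5.56 FPKM with MK1775 and 7.88 FPKM in the libraries labelled Wee1 siRNA. By named transcripts, Pramel5 averaged 0.497 FPKM while Pramel4 was listed at 0. In MK1775 replicates 2 and 3 and replicate 2 of the siRNA label, all Pramel5 FPKM was ENSMUST00000105752, which begins on the minus strand at 144000597. ENSMUST00000035757, with a value in the other treated libraries, begins further upstream at 144007058. The average may thus belong to the printed window only in part.

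TATAA, searched on both strands, was found in 22 of the 37 Pramel windows (59.5%) and in 23.5% of the 27025 RefSeq windows of the same length. It was in 13 of 16 windows of genes at 0 in NC and above 0 in all treated libraries, and in 9 of the 21 other Pramel windows. In the printed sequences it begins 38 bases before the start in Pramel20, 68 in Pramel31, 28 in Pramel24, 32 in Pramel11, 49 in Pramel5 and 29 in Pramel4, so Pramel4, at 0 in all libraries, has it too. CCAAT was in 20 Pramel windows (54.1%) and 34.5% of all windows, and TGCACAC in 0 of 37 and 3.49% of all. Pramel20 and Pramel31 each hold ATTCAATCA once as written and once as its reverse complement, a motif chosen after the sequences were read. It was in those 2 of 37 Pramel windows and in 46 of all 27025 (0.17%). Pramel windows had a median GC content of 42% against 52% over all windows. Such matches describe letters only, and windows that are copies of each other are not separate observations.

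Genes related to the family by known function were read from lists written with results of these data known. Of 36 genes of the cleavage-stage embryo, a set active around the first activation of the mouse embryonic genome, 34 were measured and 21 of them were at 0 in NC and above 0 in all treated libraries, against 1.97% of all named genes. Its 3 most abundant members by the mean over all 9 libraries were Eif4a3l1, an eIF4A3-like gene, with 29.6 ± 2.94 FPKM with MK1775, 36.1 ± 0.494 FPKM in the libraries labelled Wee1 siRNA and 0.0121 ± 0.021 FPKM in NC, Tcstv1, and the zinc finger gene Zfp352. Tcstv1 had 15 ± 1.5 FPKM with MK1775, 22.1 ± 2.28 FPKM in the libraries labelled Wee1 siRNA and 0.00799 ± 0.0138 FPKM in NC, and Zfp352 had 9.5 ± 1.09 FPKM with MK1775, 12.5 ± 1.34 FPKM in the libraries labelled Wee1 siRNA and 0 in NC (SD, n = 3 each). Of 8 tested, 7 were higher than in NC with MK1775 (17.9% of all genes tested) and 7 in the libraries labelled Wee1 siRNA (19.6%). The genes tested were at or near 0 in NC and passed the minimum through the treated libraries, so nothing is read from these counts against NC. Between the treatments limma called 0 of the 8, and 4 had an unadjusted p under 0.05, as had 5.89% of all genes tested. Other PRAME-family relatives were low or at 0. Oog1 and Oog2 were at 0 in all 9 libraries, Oog3 averaged 0.0281 ± 0.0257 FPKM with MK1775, 0.0284 ± 0.0492 FPKM in the libraries labelled Wee1 siRNA and 0 in NC, and Prame was not analysed here. Lrrc14, a relative outside the arrays, had 2.53 ± 0.25 FPKM with MK1775, 2.98 ± 0.39 FPKM in the libraries labelled Wee1 siRNA and 2.27 ± 0.0975 FPKM in NC (SD, n = 3 each).

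Of 15 genes of the CUL2 ubiquitin ligase, all tested, 3 were higher and 3 lower than in NC with MK1775, and 4 higher and 3 lower in the libraries labelled Wee1 siRNA. By the same fit 17.9% of all genes tested were higher and 23.1% lower with MK1775, and 19.6% higher and 23.2% lower in the libraries labelled Wee1 siRNA, shares that also stand beside the counts of the lists that follow. Cul2, the scaffold, had 5.71 ± 0.694 FPKM with MK1775 and 5.03 ± 0.416 FPKM in the libraries labelled Wee1 siRNA, against 8.06 ± 1.23 FPKM in NC (SD, n = 3 each). Of 12 tested genes of DNA methylation and its upkeep, 2 were higher and 4 lower with MK1775, Uhrf1 being lower, and 3 higher and 4 lower in the libraries labelled Wee1 siRNA. Dnmt1, the maintenance methyltransferase, had 27.2 ± 11.1 FPKM with MK1775 and 27.6 ± 7.71 FPKM in the libraries labelled Wee1 siRNA, against 41.8 ± 1.98 FPKM in NC (SD, n = 3 each), and passed the threshold in neither comparison. Of 5 tested genes of retinoic acid signalling 1 was lower in each comparison with NC. Of 7 tested genes of pluripotency and LIF signalling 4 were higher with MK1775 and 5 in the libraries labelled Wee1 siRNA, but Pou5f1, Nanog, Zfp42 and Dppa3 were at 0 in all 9 libraries. The 6 pluripotency markers summed to 0.0176 to 0.0883 FPKM with MK1775, 0.0147 to 0.127 FPKM in the libraries labelled Wee1 siRNA and 0.019 to 0.0308 FPKM in NC. The 7 oocyte markers summed to 0.134 to 0.357 FPKM with MK1775, 0.117 to 0.319 FPKM in the libraries labelled Wee1 siRNA and 0 to 0.0215 FPKM in NC. Of these, Gdf9 averaged 0.223 ± 0.0773 FPKM with MK1775, 0.225 ± 0.111 FPKM in the libraries labelled Wee1 siRNA and 0.0141 ± 0.0122 FPKM in NC (SD, n = 3 each), and Zp1, Figla and Oosp1 were at 0 in all 9 libraries. The 6 germ cell markers summed to 0.608 to 1.07 FPKM with MK1775, 1.04 to 1.61 FPKM in the libraries labelled Wee1 siRNA and 0.266 to 0.504 FPKM in NC, with Tex101 at 0 in all 9 libraries. In NC the sum was Sycp1 alone. Sycp3 averaged 0.25 FPKM with MK1775, 0.479 FPKM in the libraries labelled Wee1 siRNA and 0 in NC. Ddx4, Dazl and Mael were at 0 in NC and had low values in some treated libraries. The part of these germ cell, oocyte and pluripotency markers in the Pramel values was not tested.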

How the data were processed

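RNA-seq values of 9 libraries of 4T1 cells were used, 3 each of MK1775, the Wee1 siRNA label and NC. Libraries were made with an NEBNext Ultra kit from total RNA, per the labels' protocols. FastQC, Trim Galore, HISAT2, StringTie and the build GRCm39 appear in the submitters' processing notes, with no version of any tool. Neither poly(A) selection nor strand is given in the sources used here. The authors deposited FPKM values for 158719 transcripts, 17991 of them without a gene name. At most 34.9% of low values in a library lay within 0.1 of a whole multiple of any step tried, so reads were not recovered and depth is unknown.

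FPKM was summed by gene name; 19 names on more than 1 chromosome were left out. A single limma fit of all 9 libraries (R 4.3.3, limma 3.58.1, lmFit, contrasts.fit and eBayes with trend, two-sided) used log2(FPKM + 1) for the 10453 genes averaging 1 FPKM or more. Differences on this scale understate those of low genes. No label says that the replicates are separate cultures; p-values then measure spread among these libraries only, and it may be technical. Promoters were aligned with Biopython 1.88, ends free of penalty.

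Members, lists and tests were chosen with earlier results of these data known. The rule names members with a group mean of at least 1 FPKM, Pramel1, Pramel3, Pramel6 and Pramel7, any member called between treatments, Wee1, Uhrf1, Dnmt1, Cul2, Prame, Oog genes and up to 3 leading genes per list, of which only some are printed. Pramel4, Pramel5, Pramel11, Pramel16, Pramel32, Pramel37, Pramel50, Pramel51, Lrrc14 and the neighbouring genes were picked after their values were seen. Alternatives were other pseudocounts, filters, scalings, a replicate block, fits of 2 groups, eBayes without trend, the most abundant transcript, unnamed transcripts added and leaving out each library. One immune cell marker is not reported here.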

Additional observations from a re-analysis of the deposited data

How the results depend on the processing

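No Pramel gene was called between MK1775 and the libraries labelled Wee1 siRNA under any alternative. The count of all genes called there, 1, was 11 with no filter, 2 with the most abundant transcript per gene, and 0 to 3 when a library was left out; the cause was not tested. Same-numbered libraries correlated at -0.12 to 0.0435 in their deviations from group means, and differently numbered ones at -0.155 to 0.182. With 3 libraries per group, these values cannot tell if same-numbered libraries were handled together. With the replicate number as a block the direct count was 0, and 3881 and 4079 genes were called against NC with MK1775 and in the libraries labelled Wee1 siRNA. Pramel genes called against NC, 7 with MK1775 and 9 in the libraries labelled Wee1 siRNA, were 11 and 18 with no filter, 2 and 2 at a minimum mean of 5 FPKM, and 11 with MK1775 once unnamed transcripts were added, where more or fewer members were tested; they were 5 to 8 and 8 to 9 when a library was left out. The log2 ratio of family sums, MK1775 over the libraries labelled Wee1 siRNA, was -0.27, and -0.41 with unnamed transcripts at the 11 loci that hold no other named gene. Over NC it was 3.19 with MK1775 and 3.46 in the libraries labelled Wee1 siRNA; these were 3.64 and 3.89 with the most abundant transcript and 4.20 and 4.62 with unnamed transcripts, which add FPKM to treated libraries alone. Among single genes, none of them called, the direct difference turned sign in 11 cases. It was 0.14 for Pramel12 and 0.14 for Pramel45 with the most abundant transcript. For Pramel17 it was 0.015 with median-of-ratios scaling, 0.045 with quantile normalization, and -0.057 to 0.036 when a library was left out, above 0 without MK1775 replicate 1 or replicate 3 of the siRNA label. For Pramel19 it was -0.52 with unnamed transcripts, and -0.53 to 0.58 when a library was left out, below 0 without MK1775 replicate 2 or replicate 1 of the siRNA label. Leaving out a library gave -0.13 to 0.31 for Pramel20 and -0.32 to 0.11 for Pramel45, whose signs turned without replicate 3 of that label. Over all alternatives the direct differences of Pramel18 ranged from -1.70 to -0.37, of Pramel21 from -1.32 to -0.31, of Pramel24 from -0.50 to -0.40 and of Pramel31 from -0.47 to -0.27. FPKM carries no read totals, so no limit for a gene listed at 0 can be given.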
